A study of Mus musculus with 10 samples.

Results

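The gut hormone genes described here were 10 genes of enteroendocrine (EE) cells, chosen by name as Gcg, Sst, Ghrl, Cck, Gip, Pyy, Nts, Sct, Tac1 and Tph1, of 31053 genes in the library tables. They were measured by 10x Genomics 3′ single-cell RNA-seq in mouse intestinal organoids and colonic crypts, as counts of unique molecular identifiers (UMIs, each standing for a captured transcript). The 8 organoid libraries held 22139 kept cells, 664 of which the authors' annotation placed in the EE class. All 10 genes had at least 1 UMI in the EE cells of 1 library, and 8 or 9 of them had one in each of the other 7.

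Organoids were grown from crypts of the proximal small intestine of 6- to 12-week-old mice. ENR-organoids (3 libraries) were kept in EGF, Noggin and R-Spondin 1: replicate 1 at passage 2, replicate 2 at passage 7, and replicate 3, which was started from primary crypts, at passage 3. Hyper-organoids (3 libraries) were kept in EGF, R-Spondin 1 conditioned medium, FGF2, the BMP receptor inhibitor LDN193189, GSK-3 Inhibitor XV, the kinase inhibitor Pexmetinib, the histone deacetylase inhibitor valproic acid (VPA) and the EZH2 inhibitor EPZ6438. Replicates 1 and 2 of Hyper-organoids were made from ENR-organoids and sampled at passages 1 and 6, and replicate 3 came from primary crypts at passage 3. The -VE-organoids (2 libraries, from ENR-organoids, passages 1 and 6) had the Hyper medium without VPA and EPZ6438. Colonic crypts gave 1 library from normal mice and 1 from mice given dextran sulfate sodium (DSS), which injures the colonic epithelium. The mouse line behind each library is not given in the labels, and nothing in them says that replicates of a group came from separate animals, so each p-value measures only the spread between these libraries. Origin and passage differ within groups, and the shared replicate numbers follow the culture series of the sample titles.

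EE cells are rare secretory cells scattered through the gut epithelium that release peptide hormones or serotonin into blood and tissue in response to nutrients and microbial products. They arise from crypt progenitors through the transcription factor Neurog3, and their hormones have long been used to name subtypes, such as L cells with Gcg and Pyy, K cells with Gip, I cells with Cck, S cells with Sct, D cells with Sst, X cells with Ghrl, N cells with Nts and enterochromaffin cells with Tph1 and Tac1. Many EE cells make more than 1 hormone, and a cell can change its hormones as it moves from crypt to villus, where BMP signalling is higher. Growth of the cultures with and without the 2 epigenetic inhibitors allows these hormones to be compared between media.

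Each library held 61 to 107 EE cells, or 2.07% to 4.34% of its kept cells. The class was named by the authors from Chgb, Chga, Cck and Neurog3, so the presence of Cck in it is partly a matter of definition. Whether the other 9 genes entered the clustering behind the class is not given in the sources used here. Endocrine transcription factors outside that list were looked at as a description of the class. At least 1 UMI of Neurod1 was present in 80.8% to 94.8% of EE cells and in 0.131% to 0.843% of all other cells, and at least 1 UMI of Rfx6 in 58.4% to 78.4% and 0.0397% to 0.439%. Insm1 was found in 89.9% to 100% of EE cells and in 1.36% to 6.48% of other cells. Fewer EE cells held Isl1, at 20.2% to 38.4% against 0.131% to 3.85% of other cells. Pax6 was found in 9.35% to 51.4% of EE cells, with 9.35% to 12.8% in Hyper, and in 0.214% to 4.16% of other cells. The median EE cell carried 14295 to 24908 UMIs against 38569 to 51410 in other cells. Pairs of the 10 libraries shared at most 0.207% of the cell barcodes of the smaller library. Goblet marker sums in EE cells ranged from 1905 to 7281 CPM (a count divided by the summed UMIs of the cells and multiplied by 1e6) and were highest in Hyper replicate 3, and Paneth marker sums were 627, 600 and 335 CPM in ENR, 2988 and 4228 CPM in -VE, and 5111, 841 and 2468 CPM in Hyper. Every -VE and Hyper library was above every ENR library, so Paneth markers moved with the comparisons against ENR that follow. The sum of 4 markers of enteric neurons and glia was low but separated the groups as well, at 22.5, 18.3 and 23.6 CPM in ENR, 13.4 and 11.4 CPM in -VE, and 59.5, 80.2 and 53.9 CPM in Hyper. Whether markers of other cell types had a part in the results below was not tested.

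Sequences just upstream of the start of transcription are given for Gcg and Cck, the hormone genes called lower in Hyper-organoids than in ENR-organoids, and for Sst, whose transcripts came from very few cells. Each is 250 bases from RefSeq on GRCm38.p6, ending at the base before the annotated start and read on the gene's strand, which is the minus strand for all 3. The gene spans given further on come from GENCODE vM21, which starts some of these genes at another base, so that the Sst window lies partly inside the GENCODE span of Sst. Windows were found for all 10 genes (15 windows, since Ghrl, Pyy and Tph1 have more than 1 annotated start). Capitals mark matches to 3 motifs, each searched on both strands: a TATA box (the letters TATAAA) in Gcg, the core of the cyclic AMP response element (the letters TGACG) in Cck, where it lies on the other strand, and the full element (the letters TGACGTCA, which contain the core on both strands) in Sst.
Gcg, chr2:62483654-62483903: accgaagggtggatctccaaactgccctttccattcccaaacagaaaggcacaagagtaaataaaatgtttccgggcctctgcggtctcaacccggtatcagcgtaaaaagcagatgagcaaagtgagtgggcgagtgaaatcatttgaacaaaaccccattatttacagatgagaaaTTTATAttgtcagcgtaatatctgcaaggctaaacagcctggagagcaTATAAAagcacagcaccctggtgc
Cck, chr9:121495695-121495944: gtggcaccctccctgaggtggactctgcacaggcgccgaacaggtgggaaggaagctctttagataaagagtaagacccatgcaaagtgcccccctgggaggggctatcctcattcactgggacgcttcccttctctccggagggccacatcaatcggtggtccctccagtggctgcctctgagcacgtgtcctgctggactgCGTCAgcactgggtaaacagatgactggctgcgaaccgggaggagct
Sst, chr16:23890845-23891094: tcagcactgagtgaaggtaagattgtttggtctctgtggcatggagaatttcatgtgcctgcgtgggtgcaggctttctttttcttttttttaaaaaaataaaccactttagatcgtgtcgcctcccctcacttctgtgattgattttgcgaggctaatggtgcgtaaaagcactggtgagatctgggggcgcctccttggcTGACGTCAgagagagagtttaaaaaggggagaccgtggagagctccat
The TATA box of Gcg began 24 bases upstream of the start, and its copy on the other strand spanned 72 to 67 bases upstream. The element of Sst spanned 48 to 41 bases upstream and the core of Cck 47 to 43. On either strand, TATAAA was present in 12.4% of 32851 such windows of the genome, TGACG in 17.8% and TGACGTCA in 1.55%. Among the other 7 members, Sct held TATAAA, and Tac1, Tph1 and Nts held the core. These matches describe letters in a window and are not evidence of binding.

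Hormone transcripts were first summed over the EE cells of each library and scaled to CPM with edgeR's TMM library sizes, and a gene was called when the Benjamini-Hochberg adjusted p of edgeR's quasi-likelihood test over 11050 genes was under 0.05 and the change was at least 2-fold. Between Hyper- and ENR-organoids, Gcg and Cck fell in Hyper-organoids, no hormone gene rose, and the other 8 did not pass. The count was thus 2 of 10 lower, where 1.44% of all genes tested were called lower, and 0 of 10 higher, where 5.96% of all genes were called higher. DESeq2 gave the same 2 and 0, and Nts alone had an unadjusted edgeR p under 0.05 on the higher side (0.0309). Between Hyper- and -VE-organoids, Gcg and Pyy were lower (2 of 10, against 0.489% of all genes) and Sst was higher (1 of 10, against 3.52%). Between -VE- and ENR-organoids no hormone gene was called by edgeR in either direction, where 0.118% of all genes were called higher and 0.0724% lower. DESeq2 called none there either, and Pyy and Sst had an unadjusted edgeR p under 0.05 (0.0141 and 0.00453). The replicate spread of each gene is visible in the plot of CPM by library.

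**Figure D1:**
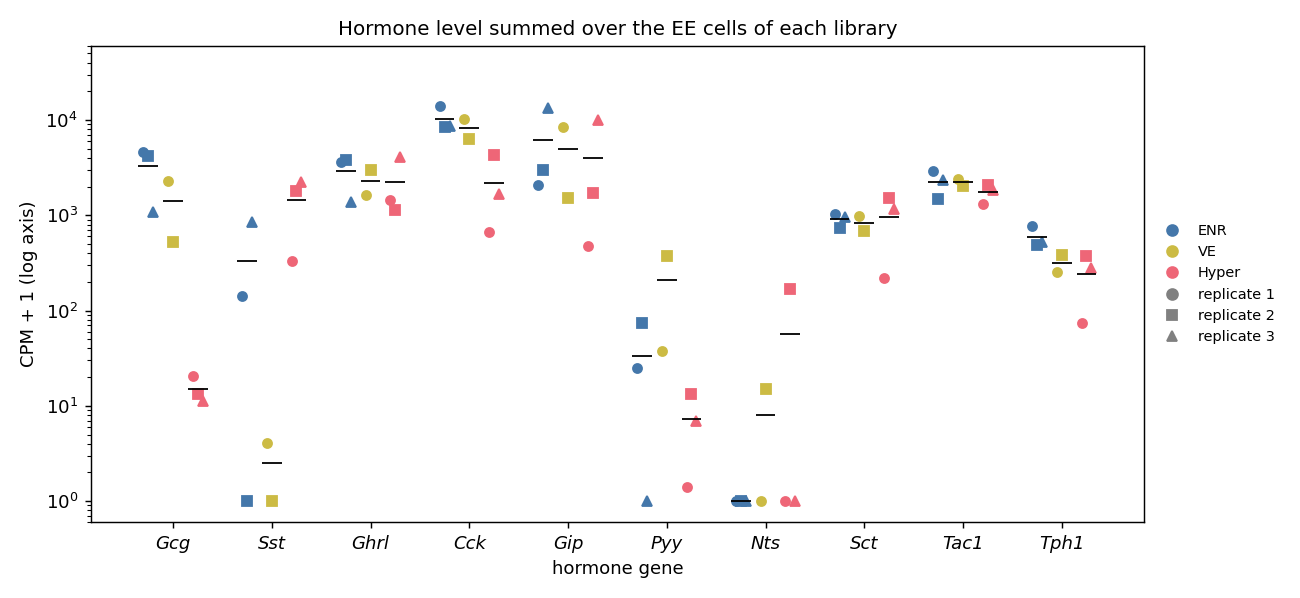
CPM of each hormone gene summed over the EE cells of each library, plus 1, on a log axis, with 1 point per library coloured by group (3 ENR, 2 -VE and 3 Hyper libraries) and a short line at each group's mean. Gcg lies between 1071 and 4643 CPM in ENR-organoids and between 10.3 and 19.6 CPM in Hyper-organoids, whereas the points of Tac1, Sct and Ghrl overlap between these groups.

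Gcg (ENSMUSG00000000394, chr2:62474530-62483650 on GRCm38) encodes proglucagon, from which L cells cut GLP-1 and GLP-2. Summed over EE cells it stood at 4643, 4221 and 1071 CPM in ENR replicates 1, 2 and 3. In the -VE replicates it was 2277 and 518 CPM, and in Hyper replicates 1, 2 and 3 it was 19.6, 12.5 and 10.3 CPM. Every Hyper library was below every other library, and ENR and -VE overlapped. The log2 change from ENR to Hyper was -7.84 ± 0.73 (SE, n = 3 and 3, edgeR adjusted p = 9.3e-05), that from -VE to Hyper was -6.59 ± 0.72 (n = 3 and 2, edgeR adjusted p = 0.000512), and that from ENR to -VE was -1.25 ± 0.61 (edgeR adjusted p = 0.413). Both calls held with DESeq2 and with the highest Gcg cell of each library left out.

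Cells with Gcg were fewer in Hyper-organoids and held less of it, but a share above a UMI limit depends on the level, so these were not separated. To compare shares at equal depth, EE cells with at least 10000 UMIs (607 cells: 185 ENR, 153 -VE and 269 Hyper) were thinned to 10000 UMIs each, and a cell with at least 5 UMIs of a hormone was counted as positive. Of these, 17 ENR, 8 -VE and 3 Hyper cells were Gcg-positive. The share was 9.68%, 11.8% and 5.45% in ENR replicates 1 to 3, 5.80% and 4.76% in -VE, and 1.10%, 1.00% and 1.28% in Hyper, which is a single cell in each Hyper library. ENR and Hyper did not overlap (8.97% ± 3.21 against 1.13% ± 0.14, SD, n = 3 each, two-sided exact permutation p = 0.1, the smallest that 3 against 3 allows, adjusted p = 0.5 over 10 genes). The difference, -7.84 percentage points, came to -3.98 without the deepest 10% of EE cells, again without overlap. In unthinned counts, 14 ENR and 4 -VE cells held 100 or more Gcg UMIs, the highest with 2922 and 3577, against 0 Hyper cells, where the highest had 50. Each library has few Gcg cells, and the exact binomial 95% intervals of these shares, which cover counting error only, reached from 1.14% to 21.9% in ENR and from 0.0253% to 6.94% in Hyper. Cells outside the EE class with a Gcg UMI at the same depth were at most 0.825% of any library and none in Hyper.

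Gcg-positive cells were also rich in other hormones. Of the 17 ENR cells, 16 were positive for Cck, 16 for Sct and 15 for Ghrl, and none for Tph1. All 8 -VE cells were positive for Cck and Sct, 5 for Ghrl and 5 for Pyy. Of the 3 Hyper cells, 3 were positive for Sct, 2 for Cck and 1 for Ghrl. No EE cell in any group was positive for both Gcg and Tph1, where the product of the 2 shares in each library gave 6.61 cells.

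Pyy (ENSMUSG00000017311, chr11:102106676-102107832), the peptide YY that L cells co-release with GLP-1, was scarce. It came to 23.8, 72.5 and 0 CPM in ENR, 37.0 and 375 CPM in -VE, and 0.391, 12.5 and 5.97 CPM in Hyper. Both -VE libraries were above all 3 Hyper libraries, and ENR overlapped with both. The log2 change from -VE to Hyper was -5.09 ± 1.06 (edgeR adjusted p = 0.0171), but 540 of the 728 Pyy UMIs of -VE replicate 2 lay in 1 cell. The call was lost without -VE replicate 2 (edgeR adjusted p = 0.348), without Hyper replicate 3 (0.0678), with DESeq2 (0.173) and without the highest cell of each library (0.0513). Against ENR, the change was -2.53 ± 1.18 (edgeR adjusted p = 0.186). All 9 Pyy-positive cells (3 ENR, 5 -VE, 1 Hyper) were positive for Cck and Sct, and 8 of them for Gcg.

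Cck (ENSMUSG00000032532, chr9:121489824-121495694) encodes cholecystokinin, which drives gallbladder contraction and satiety. Its EE level was 13928, 8544 and 8622 CPM in ENR, 10298 and 6258 CPM in -VE, and 669, 4264 and 1662 CPM in Hyper. Hyper was lower than both other groups without overlap, and its own libraries were far apart, with replicate 2 highest and replicate 1 lowest. The log2 change from ENR to Hyper was -2.24 ± 0.51 (edgeR adjusted p = 0.0135) and from -VE to Hyper -1.91 ± 0.54 (edgeR adjusted p = 0.0658). The first call was lost without ENR replicate 1 (adjusted p = 0.0527), without Hyper replicate 3 (0.0554) and without the deepest 10% of EE cells of each library (log2 change -1.20, 0.0699), and it held without the top Cck cell of each library (-1.96, 0.036).

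No Hyper library lay below the ENR range in the share of Cck-positive cells. It was 25.8%, 20.6% and 30.9% in ENR, 33.3% and 25% in -VE, and 25.3%, 42.0% and 35.9% in Hyper, so that the groups overlapped (Hyper minus ENR 8.62 percentage points, exact permutation p = 0.3, adjusted p = 0.667). In unthinned counts the share was 26.4%, 25.3% and 32.8% in ENR and 38.1%, 45.8% and 43.0% in Hyper, without overlap (14.2 percentage points, exact permutation p = 0.1, adjusted p = 0.25), and without Hyper replicate 1 the thinned shares did not overlap either (13.2 percentage points, exact permutation p = 0.2). Without Hyper replicate 2 the difference was 4.82 percentage points, with overlap. Cells with at least 100 Cck UMIs of 10000 made up 14.5%, 11.8% and 9.09% of thinned EE cells in ENR, 10.1% and 7.14% in -VE, and 1.10%, 9% and 3.85% in Hyper. Hyper replicate 2 was close to the lowest ENR library and above -VE replicate 2. In unthinned counts the groups overlapped, with 100 or more UMIs in 9 of 72, 8 of 79 and 6 of 61 EE cells in ENR, 8 of 73 and 8 of 89 in -VE, and 4 of 97, 15 of 107 and 7 of 86 in Hyper. The top Cck cell by unthinned Cck counts held 4571, 3753 and 4852 UMIs in ENR, 6132 and 5376 in -VE, and 373, 2106 and 579 in Hyper. All 3 Hyper top cells lay below the other 5, and these cell-level measures were chosen after their values were seen and carry no test. In cells outside the EE class, 0.489% to 2.06% had a Cck UMI at the same depth.

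**Figure D2:**
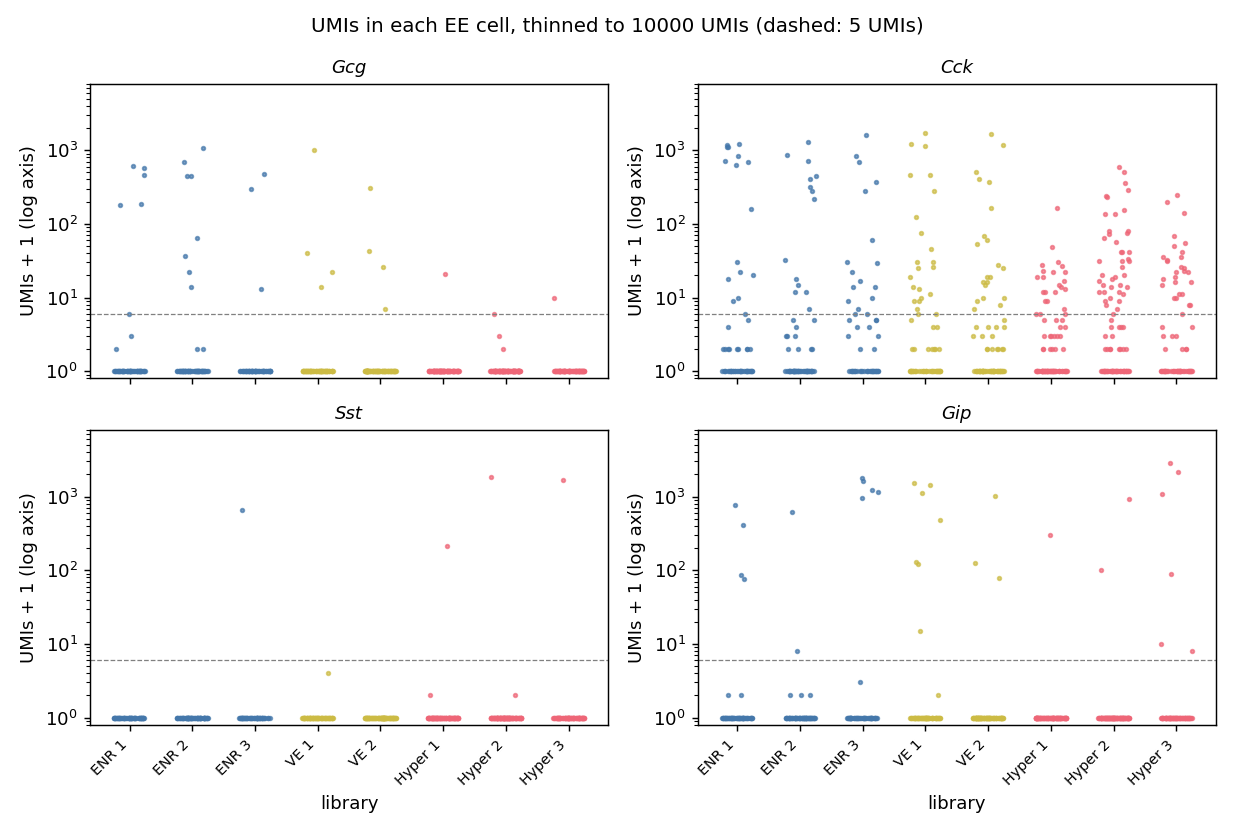
UMIs of hormone genes in each EE cell thinned to 10000 UMIs, plus 1, on log axes, with 1 column of points per library and a dashed line at 5 UMIs, the count that called a cell positive. Gcg points of ENR libraries reach far above those of the 3 positive Hyper cells, and the highest Cck points of each Hyper library lie below the highest of each ENR library.

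Tac1 and Tph1 belong to enterochromaffin cells. Tac1 (ENSMUSG00000061762, chr6:7554879-7565834), the precursor of substance P, came to 2946, 1479 and 2339 CPM in ENR, 2394 and 2032 CPM in -VE, and 1325, 2084 and 1857 CPM in Hyper. The groups overlapped, and the log2 change from ENR to Hyper was -0.36 ± 0.24 (edgeR adjusted p = 0.354). Tac1-positive cells were 29.4% to 41.9% of EE cells in ENR, 34.8% to 40.5% in -VE and 26.4% to 38.0% in Hyper. Tac1 was spread over many cells: the top cell held 8.06% to 12.9% of its EE UMIs in 7 libraries and 22.4% in Hyper replicate 1.

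Tph1 (ENSMUSG00000040046, chr7:46644641-46672537) is the rate-limiting enzyme of serotonin synthesis outside the brain. It stood at 769, 484 and 520 CPM in ENR, 251 and 380 CPM in -VE, and 72.8, 369 and 276 CPM in Hyper. Every ENR library was above every other library, but the log2 change from ENR to Hyper, -1.31 ± 0.42, did not pass (edgeR adjusted p = 0.0605). The share of Tph1-positive cells was 33.9%, 25% and 21.8% in ENR, 13.0% and 23.8% in -VE, and 4.4%, 20.0% and 20.5% in Hyper. ENR and Hyper did not overlap in this share (26.9% ± 6.25 against 15.0% ± 9.16, exact permutation p = 0.1, adjusted p = 0.5), and Hyper replicate 1 lay far below the other 2. The difference of -11.9 percentage points came to -6.64 without Hyper replicate 1, and at a limit of 3 UMIs the groups overlapped (-10.3, exact permutation p = 0.2).

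Tac1 and Tph1 were found together in all media. Of the Tph1-positive cells, 48 of 50 in ENR, 27 of 29 in -VE and 39 of 40 in Hyper were also Tac1-positive, 114 cells in all, where the product of the shares within each library gave 42.6. The reverse did not hold to the same degree, since 73.8% of Tac1-positive cells in ENR, 46.6% in -VE and 45.9% in Hyper were Tph1-positive. By replicate it was 76.9%, 80% and 63.2% in ENR, 33.3% and 55.9% in -VE, and 16.7%, 50% and 69.6% in Hyper. ENR and Hyper thus overlapped. No cell was positive for both Ghrl and Tph1 in any group (product of shares 20.1 cells).

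The company that Cck kept differed between media. Of the Tac1-positive EE cells, 3 of 26, 6 of 20 and 6 of 19 were Cck-positive in ENR replicates 1 to 3 (11.5%, 30.0% and 31.6%). In -VE it was 11 of 24 and 13 of 34 (45.8% and 38.2%), and in Hyper 15 of 24, 32 of 38 and 18 of 23 (62.5%, 84.2% and 78.3%). The 3 groups did not overlap, with ENR lowest and Hyper highest, and this was also so with 1 or 10 UMIs of Cck as the limit, with unthinned counts, with EE cells defined by markers and without the deepest EE cells, where the ENR share ranged from 7.69% to 42.1% and the Hyper share from 50.0% to 94.7%. Because this quantity was chosen after the data were seen, it is given without a test. The median Cck count in Tac1-positive cells was 0 in each ENR library, 2 and 1.5 of 10000 UMIs in -VE, and 10, 18.5 and 15 in Hyper, which is a low level beside the cells with 100 or more. In Tac1-negative EE cells of the same libraries the Cck-positive share was 36.1%, 16.7% and 30.6% in ENR, 26.7% and 16% in -VE, and 11.9%, 16.1% and 18.2% in Hyper. Among these cells no Hyper library was above the ENR range, and replicate 3 lay within it. The part of free RNA in these shares was not tested. Median depth was 13715 to 25355 UMIs in Tac1-positive cells and 15174 to 25166 in the others.

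**Figure D3:**
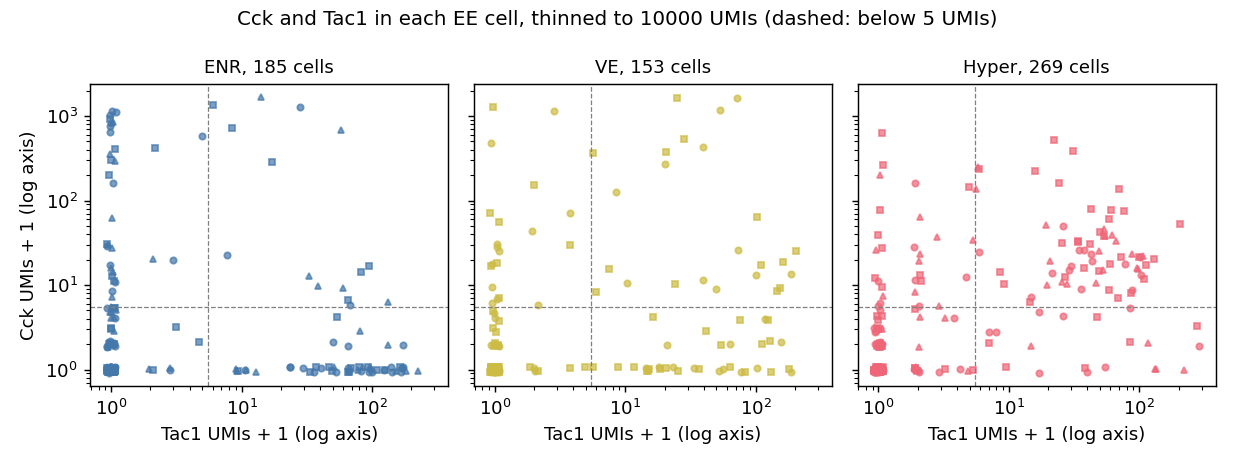
Cck against Tac1 UMIs in each EE cell thinned to 10000 UMIs, plus 1, on log axes, with 1 panel per medium, 1 marker shape per replicate and dashed lines below 5 UMIs. In the ENR panel most cells to the right of the Tac1 line lie below the Cck line (3 of 26, 6 of 20 and 6 of 19 above it in replicates 1 to 3), and in the Hyper panel most lie above it (15 of 24, 32 of 38 and 18 of 23).

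The other pairs followed from the same cells. Of 45 possible pairs of hormone genes, 23 were found in more than 5 thinned EE cells and 11 in none. Cells positive for Cck and Tac1 numbered 15 in ENR, 24 in -VE and 65 in Hyper, or 0.898, 1.45 and 2.15 times the product of the shares, and cells positive for Cck and Tph1 came to 0.633, 1.38 and 2.18 times. Cells positive for Cck, Tac1 and Tph1 together numbered 8 of 185, 10 of 153 and 32 of 269. Ghrl and Cck went the other way, at 2.70 times the product of shares in ENR (22 cells), 1.60 in -VE (12) and 0.860 in Hyper (11). Gip-positive cells were Cck-positive in 9 of 11 ENR cells, 10 of 10 -VE cells and 9 of 9 Hyper cells. These ratios describe cells pooled over the libraries of a group and carry no test.

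Ghrl (ENSMUSG00000064177, chr6:113716119-113719880), the precursor of the hunger hormone ghrelin, came to 3602, 3842 and 1392 CPM in ENR, 1650 and 2958 CPM in -VE, and 1434, 1125 and 4141 CPM in Hyper. Replicate 3 was the lowest of ENR and the highest of Hyper. The groups overlapped, with a log2 change from ENR to Hyper of -0.40 ± 0.47 (edgeR adjusted p = 0.63). Ghrl-positive cells were 17.8% ± 8.07 of EE cells in ENR and 14.1% ± 4.47 in Hyper (exact permutation p = 0.6, adjusted p = 0.667). Ghrl was the only hormone of 10 scored in 9 of 34 Ghrl-positive cells in ENR, 11 of 26 in -VE and 18 of 37 in Hyper.

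Gip (ENSMUSG00000014351, chr11:96024545-96030831), the incretin of K cells, varied widely by replicate: 2062, 3024 and 13513 CPM in ENR, 8458 and 1521 CPM in -VE, and 478, 1699 and 9908 CPM in Hyper. Within ENR and Hyper the library started from primary crypts, replicate 3, was the highest. The log2 change from ENR to Hyper was -0.62 ± 0.95 (edgeR adjusted p = 0.722). Gip-positive cells numbered 11 of 185 thinned EE cells in ENR, 10 of 153 in -VE and 9 of 269 in Hyper. The share was 6.45%, 2.94% and 9.09% in ENR, 10.1% and 3.57% in -VE, and 1.10%, 2% and 7.69% in Hyper, with overlap (exact permutation p = 0.4, adjusted p = 0.667). Within each culture series the Hyper share was below the ENR share. The exact permutation p of these differences was 0.25, the smallest that 3 pairs allow (adjusted p = 0.833). In unthinned counts it was 8.33%, 8.86% and 8.20% in ENR and 1.03%, 1.87% and 6.98% in Hyper, without overlap (-5.17 percentage points, exact permutation p = 0.1, adjusted p = 0.25). A single cell held 27.3% to 99.9% of a library's Gip UMIs in EE cells.

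Sst (ENSMUSG00000004366, chr16:23889573-23890958), which encodes the inhibitory hormone somatostatin, was carried by single cells. It came to 141, 0 and 854 CPM in ENR, 3.03 and 0 CPM in -VE, and 328, 1805 and 2261 CPM in Hyper. In Hyper replicates 1, 2 and 3, 1 cell held 835 of 838, 3905 of 3906 and 4168 of 4168 Sst UMIs, and in ENR 1 cell of replicate 1 held all 195 and 1 cell of replicate 3 all 799. The log2 change from -VE to Hyper, 9.96 ± 2.23 (edgeR adjusted p = 0.0249), thus rests on 3 cells, and without the top cell of each library Sst had too few counts to be tested. The call was also lost without -VE replicate 1 (edgeR adjusted p = 0.0979), without -VE replicate 2 (0.182) and without Hyper replicate 3 (0.0596). It was lost as well with EE cells defined by markers, with EE cells of at least 1500 genes and without the deepest 10% of EE cells. No hormone gene was called higher between Hyper and -VE in those settings. Against ENR the change of Sst was 2.17 ± 1.09 (edgeR adjusted p = 0.218), and it passed without ENR replicate 3 (0.0403). The Sst cells of Hyper replicates 1 and 3 also held 1220 and 222 Gip UMIs. With 69 and 84 thinned cells in the -VE libraries, 0 positive cells allow, by the limit of 3 counts, shares of up to 4.35% and 3.57% (the exact binomial intervals reach 5.21% and 4.30%), which is above the 1.00% to 1.28% in Hyper, so a difference in the share of cells was not detectable.

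Nts (ENSMUSG00000019890, chr10:102481756-102490486), the precursor of neurotensin, was at 0 in the EE cells of all 3 ENR libraries, at 0 and 13.9 CPM in -VE, and at 0, 166 and 0 CPM in Hyper. Its 360 Hyper UMIs lay in replicate 2, with 321 in 1 cell and 39 in another. Against the floor of 3 counts over the ENR group, the pooled Hyper level was at least 65.9-fold higher, but it came from this 1 library, and the call did not pass (edgeR adjusted p = 0.13).

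Sct (ENSMUSG00000038580, chr7:141278330-141279133), secretin, which stimulates bicarbonate secretion, was also found in other cell classes. Within EE cells it came to 1038, 743 and 956 CPM in ENR, 992 and 676 CPM in -VE, and 220, 1522 and 1159 CPM in Hyper. Hyper spanned the other groups, and the log2 change from ENR to Hyper was 0.08 ± 0.47 (edgeR adjusted p = 0.939). Sct-positive cells made up 37.1%, 29.4% and 27.3% of EE cells in ENR, 23.2% and 28.6% in -VE, and 7.69%, 31.0% and 33.3% in Hyper.

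**Figure D4:**
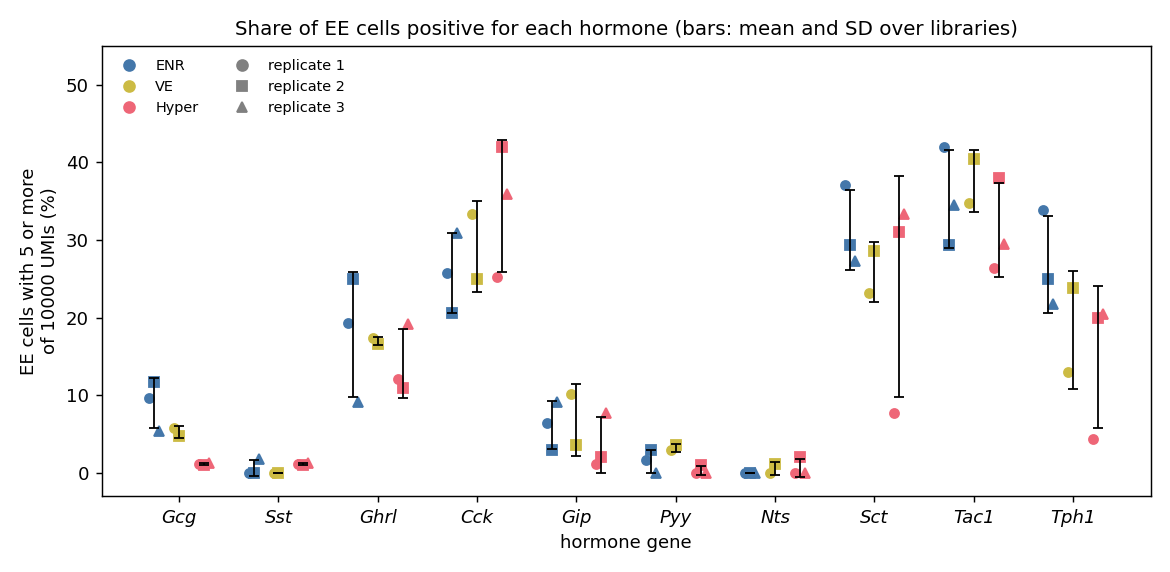
Share of thinned EE cells positive (5 or more of 10000 UMIs) for each hormone gene, in percent, with 1 point per library coloured by group and bars for the mean and SD. Gcg and Tph1 are the genes whose 3 ENR points all lie above the 3 Hyper points, and Hyper replicate 1 is the low point of Sct (7.69%) and Tph1 (4.4%).

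Hyper replicate 1 differed from the other Hyper libraries in several hormones. Cells positive for 2 or more hormones were 56.5%, 44.1% and 43.6% of EE cells in ENR, 36.2% and 39.3% in -VE, and 23.1%, 46.0% and 46.2% in Hyper. The difference between Hyper and ENR was -9.66 percentage points (exact permutation p = 0.6), and it came to -1.99 without Hyper replicate 1, -5.47 without ENR replicate 1 and -1.87 in unthinned counts. Cells positive for none of the 10 genes were 25.8% to 44.1% in ENR, 38.1% to 40.6% in -VE and 33.3% to 56.0% in Hyper, with replicate 1 at 56.0%. Over the 8 libraries the 244 EE cells without a hormone carried 3495 CPM of 10 endocrine markers (Chga and Chgb, which helped to name the class, among them) and 4805 of the goblet markers, and the 250 cells with 2 or more hormones carried 29727 and 2619. The part of these marker differences in the shares was not tested.

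With the culture series as a block, so that libraries with the same replicate number were compared with each other, more hormone genes passed within EE cells. Between Hyper and ENR there were 5, since Tph1 (log2 change -1.49, edgeR adjusted p = 0.0429) and Pyy (-2.46, 0.0367) joined Gcg and Cck on the lower side (4 of 10, against 1.57% of all genes in that fit), and Nts, at 0 in ENR, on the higher side (0.0002, 1 of 10 against 5.99%). Between Hyper and -VE, Nts was added to Sst on the higher side (0.0017, 2 of 10 against 2.94%). Both Nts calls rest on 2 cells of Hyper replicate 2. The Pyy call rests on few cells as well, since 1 cell held all 33 Pyy UMIs of ENR replicate 1. In ENR replicate 2, 1 cell held 77 of 109. Replicate 3 went the other way, with Pyy at 0 CPM in ENR and 5.97 CPM in Hyper. The fit without the block was the one planned, and it is given first both here and over all kept cells. Over all kept cells, deviations from group means correlated at 0.170 to 0.436 between same-numbered ENR and Hyper libraries. Between differently numbered ones they correlated at -0.292 to 0.129. Within EE cells the same-numbered libraries did not stand apart in this way.

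Summed over all kept cells of each library, where fewer cells of a type and less RNA per cell cannot be told apart, the order of the hormones was similar. Gcg was 67.3, 53.5 and 13.0 CPM in ENR, 32.4 and 6.21 CPM in -VE, and 0.339, 0.192 and 0.200 CPM in Hyper, and Cck was 203, 108 and 98.3 CPM, 147 and 74.8 CPM, and 12.0, 62.2 and 33.0 CPM. Both were lower in Hyper than in ENR without overlap, with log2 changes of -7.48 ± 0.97 and -1.93 ± 0.57 (edgeR adjusted p = 0.000322 and 0.0193). The call of Cck was lost without ENR replicate 1 (edgeR adjusted p = 0.0679) and without Hyper replicate 3 (0.0574). These were 2 of 10 genes called lower, against 4.75% of 16037 genes tested, and Nts was called higher (1 of 10, against 18.2%), with 0 in all 3 ENR libraries and 0.0475, 2.42 and 0.591 CPM in Hyper, at least 119-fold above the ENR floor of 3 counts over the group. Of the 428 Nts UMIs of the Hyper group, 321 and 39 lay in 2 EE cells of replicate 2 and 55 in 1 cell of replicate 3, and replicate 1 had 7. Without Hyper replicate 2 the pooled level was at least 28.4-fold above that floor and the call was lost (edgeR adjusted p = 0.0593), as it was without any 1 of the ENR replicates (0.0534 to 0.0602). Between Hyper and -VE, Gcg (-6.27 ± 0.98, edgeR adjusted p = 0.0014) and Pyy (-4.47 ± 1.19, 0.0158) were lower, against 2.51% of all genes, and Sst was higher (8.95 ± 2.01, 0.0076), against 16.1%. Without -VE replicate 2 the calls of Pyy (edgeR adjusted p = 0.219) and Sst (0.0722) were lost. Between -VE and ENR, 0 of 10 passed in edgeR, against 1.35% of genes called higher and 1.2% lower, and 1 of 10, Sst, had an unadjusted p under 0.05. DESeq2 called Sst lower in -VE (log2 change -6.21, adjusted p = 0.000597; 1 of 10, against 1.68% of all genes), where both libraries were nearly without it. With the series as a block, Sst passed on the higher side between Hyper and ENR beside Nts (edgeR adjusted p = 0.0232, 2 of 10 against 18.5% of all genes in that fit). Nts passed on the higher side between Hyper and -VE beside Sst (0.00323, 2 of 10 against 16.3%) and between -VE and ENR (0.0345, 1 of 10 against 1.41%), where 27 of its 30 -VE UMIs lay in 1 cell of replicate 2 and replicate 1 had 0.

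Most hormone transcripts were found in the EE class. Its cells held 98.1% to 99.0% of all Cck UMIs in ENR and 96.6% to 98.4% in Hyper, and for Tac1, Tph1, Ghrl and Gip between 90.8% and 99.4% in any library. For Gcg it was 92.0% to 99.4% in ENR and -VE and 93.1% to 100% in Hyper. Sst, Pyy and Nts had few UMIs in several libraries and lay partly or wholly outside the class there: all 28 Sst UMIs of ENR replicate 2, all 6 Pyy UMIs of ENR replicate 3, and all 7 and 56 Nts UMIs of Hyper replicates 1 and 3. Sct lay partly outside the class in every library, with 64.4% to 78.3% in ENR, 54.9% and 72.2% in -VE and 40.1% to 59.5% in Hyper inside it. Between 64.3% and 87.1% of the Sct UMIs outside the EE class lay in goblet cells, the mucus-secreting class. In thinned goblet cells, at least 1 Sct UMI was present in 39.6%, 36.2% and 47.1% in ENR, 33.3% and 36.7% in -VE, and 39.0%, 62.8% and 68.5% in Hyper. Paneth cells, where at least 20 were present, had it in 33.3% to 81.5%, whereas stem, transit-amplifying and enterocyte classes had it in 0% to 3.76% of cells thinned to the same depth. Tac1 was also found outside the EE class, and more often in Hyper. At least 1 Tac1 UMI was present in 0.515%, 0.328% and 0.232% of thinned cells outside it in ENR. It was 0.628% and 0.305% in -VE, and 2.22%, 1.25% and 2.46% in Hyper. In goblet cells pooled by group it was 0% in ENR, 0.578% in -VE and 10.9% in Hyper (1, 20 and 317 unthinned UMIs). Neither this difference nor a part of free RNA in it was tested.

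At the limit of 5 UMIs, Sct-positive goblet cells were 0.990%, 4.26% and 6.72% in ENR, 3.70% and 0.840% in -VE, and 7.14%, 29.3% and 30.6% in Hyper. All 3 Hyper libraries were above the other 5, replicate 1 only just (22.4% ± 13.2 against 3.99% ± 2.88 in ENR, two-sided exact permutation p = 0.1, the smallest possible, and 0.2 for the summed Sct CPM of goblet cells, where the groups overlapped). No test outside the EE class had been planned, and these p-values are not adjusted. Among cells outside the EE class that were Sct-positive, 0 of 19 in ENR, 1 of 13 in -VE and 11 of 108 in Hyper held a UMI of Chga or Chgb. Of all cells outside the EE class, 3.89% to 11.1% in ENR held a UMI of Chgb alone. It was 8.11% and 6.26% in -VE, and 6.59% to 10.2% in Hyper, so the Hyper count is near that background. The number of Sct UMIs per Cck UMI was 0.0745 to 0.697 in EE cells and 1.51 to 30.3 outside them, and it was higher outside in each library. Cck itself was detected in 0% to 6.93% of goblet cells. The part of free RNA in the Sct of other classes was not tested.

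**Figure D5:**
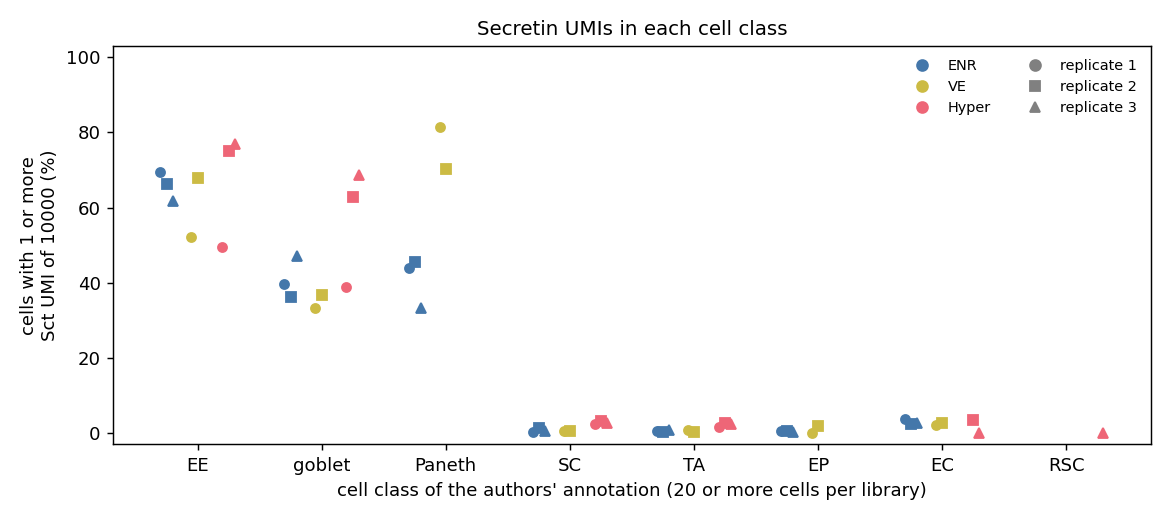
Share of cells with at least 1 Sct UMI among 10000, in percent, by class of the authors' annotation, with 1 point per library coloured by group, for classes with at least 20 cells per library. EE, goblet and Paneth cells lie far above the stem, transit-amplifying and enterocyte classes, which stay at or below 3.76%, and the highest goblet points are Hyper replicates 2 (62.8%) and 3 (68.5%).

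Other genes of the endocrine system were taken from 4 lists. Of 22 enteroendocrine transcription factors, 21 were tested and 4 fell from ENR to Hyper, where 1.44% of all genes were called lower, with no list member rising, where 5.96% were called higher (median log2 change of the list -0.53, of all genes 3.4e-05). The list median was -0.51 from ENR to -VE and -0.13 from -VE to Hyper. Pax6, needed for several hormone lineages, fell from 126, 99.2 and 95.1 CPM in ENR to 9.39, 16.2 and 23.9 CPM in Hyper (log2 change -2.74 ± 0.34, edgeR adjusted p = 0.000507), and it was also lower in Hyper than in -VE (-1.90 ± 0.38, 0.0142), where it stood at 86.6 and 35.0 CPM. Etv1 (-2.02 ± 0.27) and Neurod2 (-1.51 ± 0.27) were also among those that fell. Of the 4 most abundant factors, Neurog3 changed by 0.81 ± 0.20 (edgeR adjusted p = 0.0186), short of 2-fold, and Sox4 (0.13 ± 0.20), Insm1 (-0.28 ± 0.16) and Neurod1 (-0.53 ± 0.18) did not pass.

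Of 20 sensors of endocrine cells, 11 were tested. Ffar1, a receptor for long-chain fatty acids, fell from 68.5, 49.2 and 50.2 CPM in ENR to 3.13, 2.77 and 5.97 CPM in Hyper (log2 change -3.85 ± 0.29, edgeR adjusted p = 2.5e-05), and from 30.3 and 21.1 CPM in -VE (-2.71 ± 0.33, 0.000983). It was the only sensor to pass between Hyper and ENR (1 of 11 lower, against 1.44% of all genes, median -0.26), and Ffar4 (1.14 ± 0.27) and Sstr1 (1.42 ± 0.34) were higher in Hyper than in -VE (2 of 11, against 3.52% of all genes). Ffar2, the most abundant sensor, changed by -0.21 ± 0.19 (edgeR adjusted p = 0.522), Trpa1 by -0.99 ± 0.56 (0.279) and Ffar4 by 0.74 ± 0.24 (0.0566) from ENR to Hyper. The rise of Ffar4 was not particular to EE cells. Its mean over all kept cells was 4.11 CPM in ENR, 8.34 CPM in -VE and 27.5 CPM in Hyper. Sstr1 was not above its ENR level in Hyper (0.014 ± 0.27, edgeR adjusted p = 0.985). Its means were 17.4 CPM in ENR, 6.68 CPM in -VE and 18.1 CPM in Hyper.

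Of 15 genes for prohormone and amine processing, 14 were tested and 1, Pcsk1n, an inhibitor of a prohormone convertase, rose from ENR to Hyper (log2 change 1.02 ± 0.26, edgeR adjusted p = 0.0214), with a list median of -0.08. In the same comparison 5.96% of all genes were called higher, so 1 of 14 is near the background. The convertase Pcsk1 changed by -0.44 ± 0.18 (0.122), Gch1 by -0.38 ± 0.22 (0.274), Cpe by -0.55 ± 0.15 (0.0317) and Ddc, which makes serotonin from the product of Tph1, by -0.73 ± 0.20 (0.0288), the last 2 short of 2-fold. Of 19 other peptide hormones of the gut, 8 were tested, 2 rose, where 5.96% of all genes were called higher, and 1 fell, where 1.44% were called lower (list median 0.86). Iapp rose by 1.85 ± 0.53 (edgeR adjusted p = 0.0383), but its libraries overlapped. It stood at 38.9, 85.8 and 94.0 CPM in ENR and at 84.2, 210 and 492 CPM in Hyper. Nucb2 rose by 1.45 ± 0.22 (edgeR adjusted p = 0.00151). Its rise was not particular to EE cells, since its mean over all kept cells was 8.26 CPM in ENR, 13.3 CPM in -VE and 25.9 CPM in Hyper. Gastrin (Gast) fell from 14.4, 3.99 and 230 CPM to 0.391, 0.462 and 1.09 CPM (-6.81 ± 1.57, 0.0143), with most of the ENR level in replicate 3. Ucn3 changed by -0.10 ± 0.58 (0.939). No member of the 4 lists was called by edgeR between -VE and ENR, where 0.118% of all genes were called higher and 0.0724% lower. An unadjusted p under 0.05 was found there for 1 of 8 other hormones, 5 of 14 processing genes, 9 of 21 transcription factors and 4 of 11 sensors, and for 1413 of all 11050 genes tested.

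The genes most like each hormone across thinned EE cells were found by the mean over libraries of Pearson's r of ln(1 + UMIs), among 8396 genes, as a description of cells that share a library. Tac1 was most like Vim (0.80), Chgb (0.80) and Scn3a (0.77), and Tph1 was most like Vim (0.78), Lmx1a (0.78) and Tac1 (0.77). For Ghrl, Cd177 (0.62) and Scgn (0.58) came first. Cck was most like Scg2 (0.69), Rbp4 (0.61) and Sct (0.54), and Sct was most like Scg2 (0.58), Cpe (0.56) and Cck (0.54). Gcg was most like Scg2 (0.55), Etv1 (0.53) and Rbp4 (0.51), with Etv1 ranging from -0.05 to 0.86 over libraries, and Gip was most like Rbp4 (0.62), Slc6a19 (0.59) and Fabp5 (0.57). Scg2 and Rbp4 thus recurred among the hormones that shared cells with Cck, and Vim among the enterochromaffin genes. Sst, Pyy and Nts rested on 4, 9 and 3 positive cells and are not ranked.

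In colonic crypts there was 1 library per group (1132 kept cells from normal and 1933 from DSS-treated mice), so no difference between them could be tested, and the intervals below are exact Poisson 95% intervals over all kept cells that cover counting error only. Tph1 stood at 41.5 CPM (38.7 to 44.4) in normal and 64.7 CPM (61.9 to 67.5) in DSS crypts, Sct at 34.2 (31.7 to 36.9) and 27.9 CPM (26.1 to 29.8), and Tac1 at 11.4 (9.92 to 12.9) and 22.5 CPM (20.9 to 24.2). These 3 hormones were spread over more than 1 cell, and the top cell held at most 20.1% of the UMIs. Pyy and Gcg, the hormones of colonic L cells, were not spread in this way in the normal library. There 3140 of 3157 Pyy UMIs and 556 of 561 Gcg UMIs lay in 1 cell each. In the DSS library the top cell held 320 of 615 Pyy UMIs and 11 of 69 Gcg UMIs. With all cells counted, Pyy stood at 159 CPM (153 to 164) in normal and 19.0 CPM (17.5 to 20.5) in DSS crypts. Gcg stood at 28.2 (25.9 to 30.6) and 2.13 CPM (1.66 to 2.70). Without the top cell of each library the order was the other way. The Pyy level was then 0.854 CPM in normal and 9.11 CPM in DSS crypts, and that of Gcg was 0.251 and 1.79 CPM. Of the 139 DSS cells with a Pyy UMI, 119 held exactly 1. Of the 46 DSS cells with a Gcg UMI, 42 held exactly 1, and 0 of the 69 Gcg UMIs lay in the endocrine cells defined by markers in the next paragraph, which held 414 of the 615 Pyy UMIs.

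The other 5 hormones had at most 32 UMIs in either colonic library. Gip had 0 UMIs in both libraries, which by the limit of 3 counts allows up to 0.151 and 0.0926 CPM (the exact Poisson intervals reach 0.185 and 0.114 CPM), Sst had 0 and 1 UMI, Cck 9 and 8, Ghrl 32 and 2, and Nts 7 and 30. Cells with at least 3 UMIs of each of 3 of the 10 endocrine markers numbered 14 in normal and 36 in DSS crypts, and 13 and 36 of them fell in cluster 16 of the authors' clustering, which held 16 and 43 cells. The cells defined by markers held 766 of the 826 Tph1 UMIs of the normal library and 2025 of the 2095 of the DSS library. Much more of the other 2 spread hormones lay outside them. They held 255 of 681 Sct UMIs in the normal and 604 of 903 in the DSS library. For Tac1 it was 131 of 226 and 291 of 729. Both colonic libraries were shallower than the organoid libraries, with median depths of 18375 and 16051 UMIs per kept cell against 38174 to 50652.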

How the data were processed

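Per the labels and the paper's methods, the authors aligned 10x 3′ v3 libraries to mm10 with Cell Ranger 3.0.0, and clustered and annotated kept cells with Seurat 3.1.4. The deposited UMI counts per gene and cell are whole numbers that were not normalized. The deposited table of the whole series was compared for the members in 25204 cells (275420 UMIs) and 0 entries differed, and all of its columns were mapped to samples. Kept cells had at least 501 genes and at most 20% mitochondrial UMIs in the deposited tables. Total UMIs in kept cells were 89124015 to 170019527 per organoid library and 19906845 and 32397122 in colon, and a doublet caller was not run. The methods state a minimum of 1500 genes, which was tried as an alternative.

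Counts were summed per library over EE cells or all kept cells and tested in R 4.3.3 with edgeR 4.0.16 (TMM, filterByExpr, quasi-likelihood test over all 8 organoid libraries, Benjamini-Hochberg adjustment), with DESeq2 1.42.0 as an alternative. Nothing was tested in colon. The steps were tested on simulated data. Every member is named between Hyper and ENR. In the other comparisons a member without a value was not called in the main fit. List genes are named by mean CPM (up to 4 per list) with all called members, which were chosen after their values were seen. The members and lists were chosen with earlier results of these data known. Alternatives were other normalization, filters, thresholds, depths, EE definitions, the culture series as a block and leaving out each library. Deviations from group means correlated between same-numbered ENR and Hyper libraries at 0.192, 0.170 and 0.436 over all cells and at -0.0336, 0.0683 and 0.151 within EE cells. Within EE cells they correlated at 0.155 and 0.25 between ENR and -VE, and at -0.16 and 0.125 between -VE and Hyper. The numbers come from the sample titles. The values of 1 gene of the lists are not reported here.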

Additional observations from a re-analysis of the deposited data

How the results depend on the processing

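Gcg kept its calls in EE cells, against ENR and against -VE, in every alternative run, whereas the calls of Cck, Pyy and Sst were lost in the settings named with them, and the cause was not tested. Genes called within EE cells numbered 818 between Hyper and ENR (1256 without a filter on low counts). Between Hyper and -VE they numbered 443 (893 without a filter, 251 after thinning, 134 to 465 leaving out 1 library, with the lowest without -VE replicate 2). Between -VE and ENR they numbered 21 (47 with DESeq2, 268 without a filter, 9 with EE cells defined by markers, 49 after thinning, 39 without the deepest EE cells, and from 3 without ENR replicate 1 to 64 without -VE replicate 1). Hormone genes called were 2 between Hyper and ENR (6 without a filter, 5 with the culture series as a replicate block, 1 to 3 leaving out 1 library) and 3 between Hyper and -VE (5 without a filter, 1 without the top cell of each hormone, which was added after seeing the data, and 1 to 4 leaving out 1 library). Between Hyper and ENR, 3 hormone genes were called lower with EE cells defined by markers, where 184 of 10953 genes were called lower. After thinning it was 3 as well, where 145 of 8794 genes were called lower. Without a filter 4 hormone genes passed between -VE and ENR, Gcg and Sst lower and Pyy and Nts higher in -VE. In that fit 156 of 17914 genes were called higher and 112 lower. Over all kept cells they ranged from 1 to 5 leaving out 1 library against ENR (1 without ENR replicate 1, 5 without Hyper replicate 1) and from 1 to 5 against -VE (1 without -VE replicate 2), and 1 passed between -VE and ENR with DESeq2 and 1 with the block. The block, the pairing of same-numbered libraries, ended no call of a hormone gene within EE cells.

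Values that turned direction belonged to genes not called in that comparison. From ENR to Hyper, Sct changed by -0.058 with the block and -0.15 with EE cells defined by markers, and leaving out 1 library it ranged from -0.39 to 0.56 and Gip from -2.51 to 0.66. From -VE to Hyper, Ghrl was 0.31 without the top cell and -0.86 to 0.43 leaving out 1 library, Sct -0.050 with the block and -0.27 to 0.69, Gip -2.20 to 1.40 and Tph1 -0.86 to 0.029. From ENR to -VE, without the deepest EE cells, Ghrl was 0.14, Cck 0.68 and Sct 0.16. With the block Gip was 1.11 and Tac1 0.023, and without the top cell Tac1 was 0.0010. Leaving out 1 library, Ghrl ranged from -0.84 to 0.015, Gip from -2.01 to 0.97, Sct from -0.42 to 0.12 and Tac1 from -0.26 to 0.22. The share of positive cells, Hyper minus ENR, became 1.34 percentage points for Sct and 3.55 for Tac1 at 1 UMI and 5.71 and 1.49 in unthinned counts, and for Sct it ranged from -11.9 to 0.906 leaving out 1 library. The few EE cells per library limit what could be seen for Sst, Nts, Pyy and Gip.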
